A study of Homo sapiens with 5 samples.

Results

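The 52 genes described here repair DNA or signal its damage, and they were listed by gene name from the 57992 genes of the count table; earlier results of these data were known when the list was made. All 52 were found, and all 52 passed the filter on low counts that left 34658 genes for testing. They comprise 12 genes of homologous recombination, 12 of the Fanconi anemia pathway, 4 of break sensing and end resection, 4 of mismatch repair, 4 checkpoint kinases, 5 of end joining, 6 of base excision and single-strand break repair, and 5 of nucleotide excision repair. Poly(A) RNA was sequenced in 5 libraries of Ishikawa, a human cell line established from an endometrioid cancer of the endometrium. In 2 libraries the cells had shared medium for 3 days with adipocytes, which had been differentiated in culture from preadipocytes and were held above a 0.4 µm transwell membrane. In 2 further libraries the same co-culture was treated with EX527, which selectively blocks SIRT1, a protein deacetylase; its dose is not in the labels. The remaining library came from Ishikawa cells grown alone (monoculture), with neither adipocytes nor EX527. No group received EX527 without adipocytes.

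As background, DNA breaks through both strands are sensed by a complex that holds RAD50 and NBN, trimmed by nucleases, and mended either by copying the sister chromatid (homologous recombination) or by direct ligation of the ends (end joining). Crosslinks between the strands are handled by the Fanconi anemia proteins, whose core complex attaches ubiquitin to FANCD2 and FANCI, while replication errors, small base lesions and bulky lesions go to mismatch, base excision and nucleotide excision repair. The kinases ATM and ATR, acting through CHEK2 and CHEK1, hold the cell cycle while repair proceeds. Loss of mismatch repair is a common feature of endometrial cancer.

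The libraries held 45653845 to 52269963 reads assigned to genes, and the least covered of the 52 genes in any library, FANCB in EX527 replicate 1, had 138 reads. Levels are given as CPM (read counts scaled to a common library total) after TMM scaling, and differences as log2 fold changes fitted with edgeR, each with its standard error (SE). Over 11232 well-covered genes, log2 levels differed between the co-culture libraries with a standard deviation of 0.112 and between the EX527 libraries with a standard deviation of 0.605. EX527 replicate 1 also stood apart in having 33325 genes at 10 or more reads, against 26022 to 27103 in the other libraries. The labels do not state whether replicates were separate cultures, so p-values measure the spread between these libraries, which may be technical. SIRT1 transcripts were at 30.3 and 32.9 CPM in co-culture, 26.2 and 29.7 under EX527 and 42.7 in monoculture. The 10 endometrial epithelial markers were all at 1 CPM or more in every library, while 7 or 8 of 12 adipocyte markers were under 1 CPM. In GENCODE 44 more than 20% of the exon length overlaps another gene in RAD50, XRCC3, RAD54B, MUTYH, LIG3, OGG1, ERCC1, XRCC1, XPC and MSH6. Their counts are uncertain, and the strand setting of the counting is not stated. In RAD54B the overlapping gene lies on the same strand, where that setting would not separate the reads. Part of the overlap in RAD50, MUTYH and XRCC1 is also with a gene on the same strand.

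**Figure D1:**
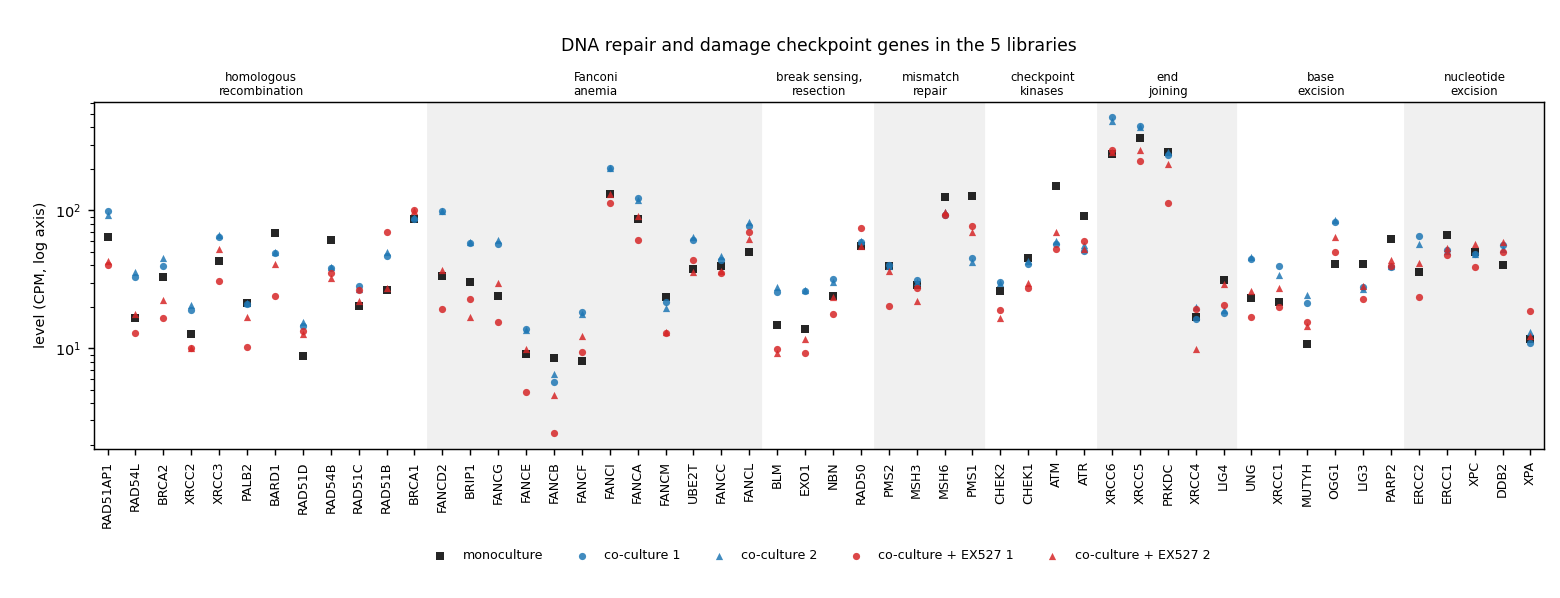
Level of each of the 52 genes in each library, in CPM on a log axis, grouped by pathway; squares are monoculture, blue symbols co-culture and red symbols co-culture with EX527. Blue symbols lie close together, red symbols lie below them for all 12 Fanconi anemia genes with TMM scaling, and the square stands highest for PMS1 and ATM.

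Most repair genes were at lower levels when co-cultured cells had been treated with EX527, most of all FANCD2, BRIP1, BLM, FANCG and EXO1. In 37 of the 52 genes both EX527 libraries lay below both co-culture libraries, in 4 (BRCA1, PMS1, LIG4 and PARP2) both lay above, and in 11 the groups overlapped. Such separation was present downward in 26.8% and upward in 28.3% of all 34658 genes tested. Among the 16029 better covered genes, those averaging 2 or more in log2 CPM, a range that holds all 52, it was present downward in 39.8% and upward in 23.1%. The median log2 fold change was -0.62 over the 52 genes, -0.14 over the 16029 better covered genes and 0.15 over all genes tested. The plot of fold changes shows each gene with its standard error. Proliferation markers were lower too, 19 of 20 in both EX527 libraries, with a median log2 fold change of -1.37 and a summed level of 3182.9 and 3073.4 CPM in co-culture, 1035.4 and 1412.6 under EX527 and 1639.1 in monoculture. In bulk RNA, fewer cycling cells and less RNA per cell cannot be told apart, and the part of cycling cells in the levels of the repair genes was not tested.

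In edgeR's quasi-likelihood test with Benjamini-Hochberg adjustment, 0 of the 52 genes passed an adjusted p of 0.05, nor did any of the 34658 genes (0.0%; smallest adjusted p = 0.0751). At an unadjusted p under 0.05, 23 of the 52 were lower and 1 (PMS1) higher, where 9.29% of all genes were lower and 10.0% higher (16% and 9.16% of the better covered genes). DESeq2's Wald test called 9 of the 52 lower and 0 higher, namely FANCD2, BRIP1, FANCG, BLM, EXO1, RAD51AP1, RAD54L, BRCA2 and UNG, where it called 5.19% of its tested genes lower and 6.76% higher. The number of edgeR calls turned on the EX527 libraries: 36 of the 52 were called lower and 4 higher without EX527 replicate 1 (22.6% and 21.7% of all genes), and 33 lower and 6 higher without EX527 replicate 2 (31.1% and 39.1%). In those fits the lone EX527 library is assumed to vary as little as the co-culture libraries do. Shares given for those fits, here and in co-culture against monoculture below, are of all genes tested, not of the better covered genes. These calls therefore do not show whether the 52 differ from genes of similar coverage. In log2 fold change, the 52 had a median of -0.42 without EX527 replicate 1, where the better covered genes had -0.02. These medians were -0.66 and -0.26 without EX527 replicate 2. Called lower in both fits were 30 of the 52, against 16.7% of all genes tested in both, comprising 10 of 12 Fanconi anemia genes, 7 of 12 recombination genes, 3 of 4 resection genes, 3 of 5 end joining genes, 4 of 6 base excision genes, 2 of 4 checkpoint kinases, 1 of 5 nucleotide excision genes and 0 of 4 mismatch repair genes. PMS1 was the 1 gene of the 52 called higher in both (12.4% of all genes).

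**Figure D2:**
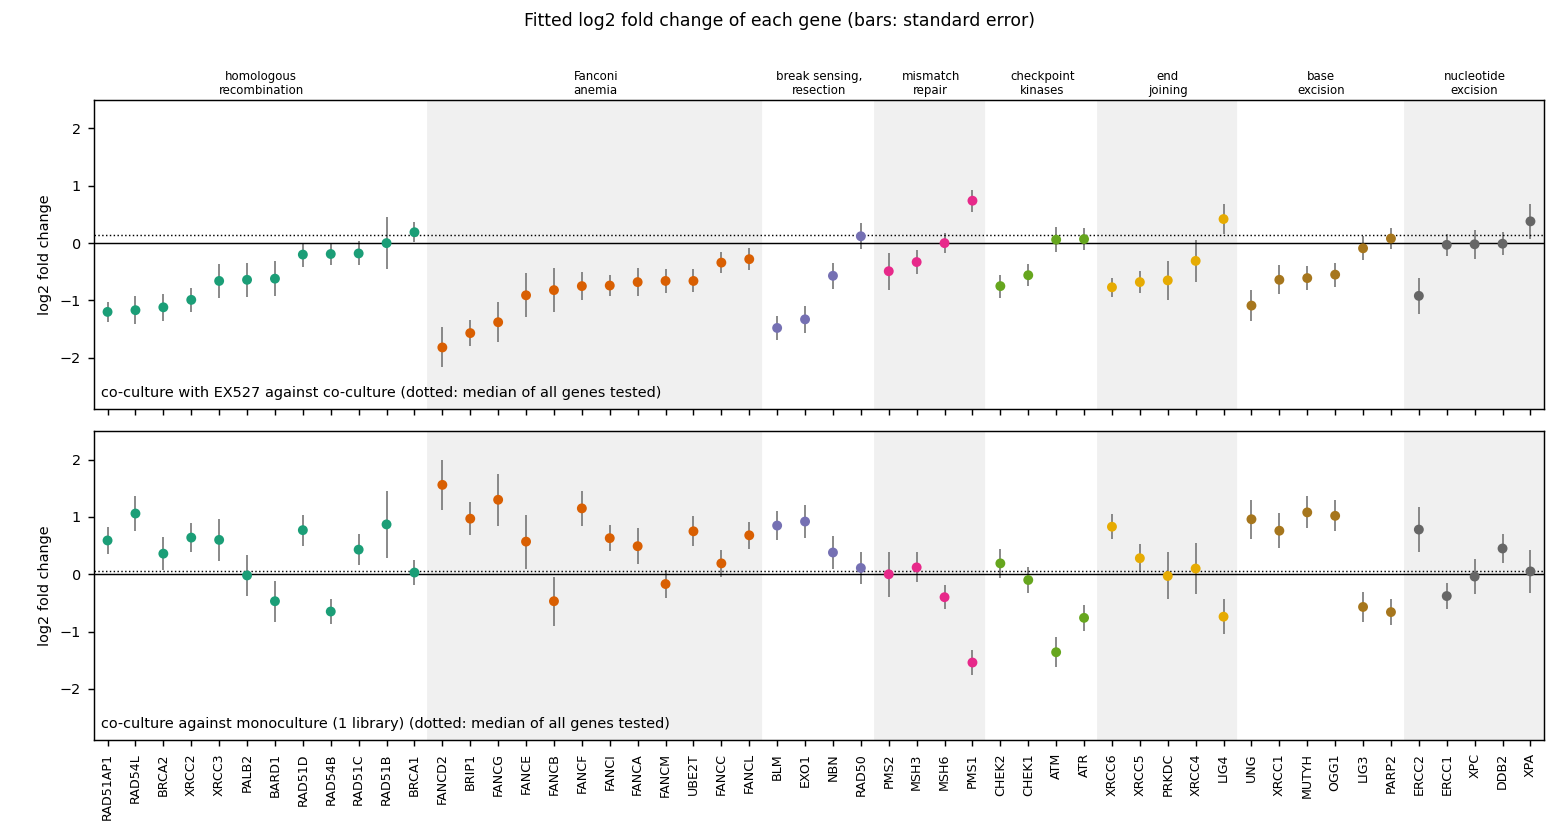
Fitted log2 fold change of each of the 52 genes (points) with its standard error (bars), for co-culture with EX527 against co-culture (upper panel) and co-culture against monoculture (lower panel); dotted lines mark the median of all genes tested. Fanconi anemia genes reach from -1.82 to -0.28 in the upper panel, and PMS1 stands at 0.74 in the upper and -1.54 in the lower panel.

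The scaling of the libraries sets where 0 lies in this comparison. With library size alone in place of TMM, the median over all genes tested moved from 0.15 to 0.42 and the median over the 52 from -0.62 to -0.35. The distance between these medians was then the same to 2 decimals as with TMM, and 30 of the 52 genes lay lower and 13 higher in both EX527 libraries. Those 13 were BRCA1, RAD50, PMS1, MSH6, ATM, ATR, LIG4, LIG3, PARP2, XPC, XPA, ERCC1 and DDB2. By library size this separation was counted for the 52 alone. These counts, and those by library size given per pathway below, do not show whether the 52 differ from other genes. With that scaling the pathway medians of recombination (-0.38), Fanconi anemia (-0.48), resection (-0.68), end joining (-0.41) and base excision (-0.31) kept their sign, whereas those of mismatch repair (0.12), checkpoint kinases (0.02) and nucleotide excision repair (0.24) were above 0.

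Against monoculture, co-cultured cells without EX527 held more of most recombination, Fanconi anemia, resection and base excision transcripts and less PMS1, ATM and ATR. This comparison has 1 monoculture library and uses the same co-culture libraries as the one above, so its values are given beside the others and not as separate support. In 33 of the 52 genes both co-culture libraries lay above the monoculture library, in 15 both lay below, and in 4 it lay between them; over all genes tested 42.8% lay above and 40.7% below, and over the better covered genes 48.7% and 46.2%. The median log2 fold change was 0.37 over the 52 genes and 0.05 over all genes tested. In edgeR's test 0 of the 52 and 0.0% of all genes passed an adjusted p of 0.05 (smallest adjusted p = 0.118). At an unadjusted p under 0.05, 16 of the 52 were higher and 5 lower (7.55% and 8.4% of all genes, 12.5% and 15.4% of the better covered ones). DESeq2 called FANCD2 and FANCG higher and PMS1 and ATM lower, where it called 4.65% of its tested genes higher and 7.59% lower. Leaving out EX527 replicate 1 or replicate 2, whose spread enters the fit, gave 28 of the 52 called higher and 11 lower by edgeR in each case, where 26.9% and 27.1% of all genes were called higher and lower without replicate 1, and 22.1% and 22.5% without replicate 2.

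Co-culture with EX527 was also set against monoculture, a comparison that shares its libraries with those above; ATM, FANCB and BARD1 lay lowest in it. The median log2 fold change was -0.24 over the 52 genes and 0.21 over all genes tested, and the 52 reached from -1.29 (ATM, FANCB) to 0.87 (RAD51B). Both EX527 libraries lay below monoculture in 28 of the 52 and above in 11 (27.1% and 33.7% of all genes, 41.6% and 21.4% of the better covered ones). None of the 52 passed an adjusted p of 0.05 in edgeR's test (0.0% of all genes). At an unadjusted p under 0.05, 12 were lower and 0 higher (5.09% and 2.28% of all genes, 10.1% and 2.63% of the better covered ones). DESeq2 called 1, ATM, lower (1.11% lower and 0.071% higher among the 8453 genes to which it gave an adjusted p). It gave none to several of the 52, among them FANCB, BLM and CHEK2. Without EX527 replicate 1 the median log2 fold change was -0.14 over the 52 and -0.06 over the better covered genes. Without replicate 2 these medians were -0.48 and -0.33. Calls from these fits are not given, since they set 1 library against 1 and take their spread from the co-culture libraries alone. Ordered by mean level, 22 of the 52 ran from co-culture through monoculture down to EX527, 11 from co-culture through EX527 down to monoculture, 11 from monoculture through co-culture to EX527, 5 from monoculture through EX527 to co-culture, and 3 from EX527 through co-culture to monoculture. In 29 of the 52 the libraries of the middle group overlapped those of neither neighbour. The orders were counted for the 52 alone, so these counts do not show whether the 52 differ from other genes.

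**Figure D3:**
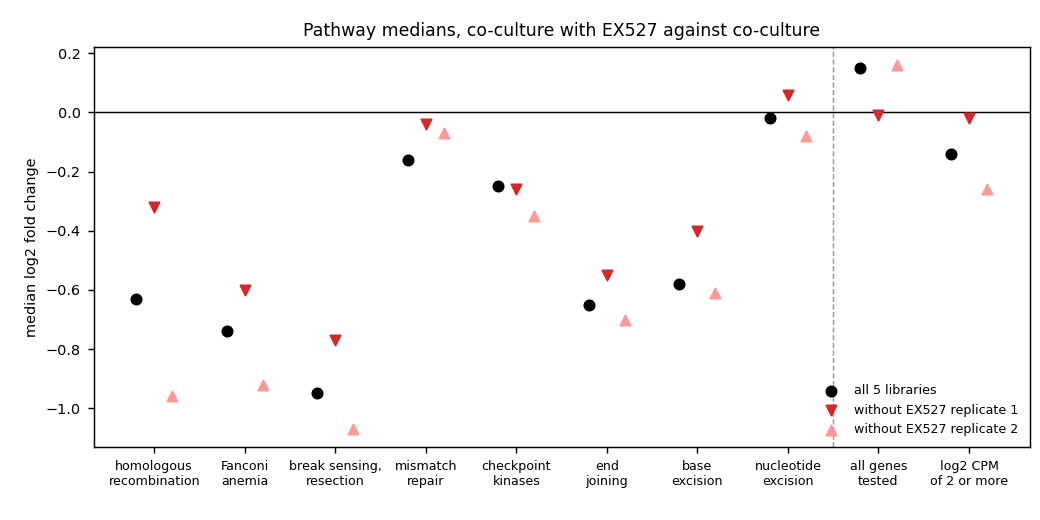
Median log2 fold change per pathway for co-culture with EX527 against co-culture, in the fit of all 5 libraries (circles) and without EX527 replicate 1 or 2 (triangles), beside the medians of all genes tested and of those averaging 2 or more in log2 CPM. Resection genes are lowest at -0.95 and nucleotide excision repair genes stand near 0 at -0.02, or at 0.24 by library size alone.

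The 12 genes listed under Fanconi anemia all pointed the same way with EX527. Both EX527 libraries lay below both co-culture libraries in each, as in 39.8% of the better covered genes. Their median log2 fold change was -0.74. By library size alone 10 of the 12 were lower and 2 overlapped. Genes for Fanconi-associated proteins listed elsewhere were mixed. Among them, FAN1 and FAAP24 had 0.20 (SE 0.32) and 0.11 (SE 0.33), and FAAP100 and FAAP20 had -0.73 (SE 0.33) and -0.12 (SE 0.18). FANCD2 (ENSG00000144554.10, chr3:10026370-10101932 in GRCh38, + strand), the protein that carries the pathway's activating ubiquitin, was at 98.5 and 98.4 CPM in co-culture, 19.3 and 36.8 under EX527 and 33.5 in monoculture. Its log2 fold change was -1.82 (SE 0.35, adjusted p = 0.120 by edgeR) with EX527 against co-culture and 1.56 (SE 0.44, adjusted p = 0.206 by edgeR) in co-culture against monoculture. The FANCD2 level in co-culture was thus set apart from the other 3 libraries, which themselves lay within 19.3 to 36.8 CPM. BRIP1 (chr17:61679139-61863559), a helicase that binds BRCA1, was at 58.0 and 59.4 CPM in co-culture, 22.6 and 16.8 under EX527 and 30.1 in monoculture, a log2 fold change of -1.57 (SE 0.23, adjusted p = 0.0879 by edgeR) with EX527. FANCG (chr9:35073835-35080004), a subunit of the core complex, was at 56.8 and 60.7 CPM in co-culture, 15.6 and 29.8 under EX527 and 23.8 in monoculture, with a log2 fold change of -1.38 (SE 0.35, adjusted p = 0.167 by edgeR). With the replicate number as a block over the 4 co-culture libraries, FANCD2, BRIP1 and FANCG had adjusted p-values of 0.0189, 0.0326 and 0.0466 by edgeR. These 3 genes were the only calls among the 52 (1.77% of all genes were called lower and 1.31% higher). The labels do not say that a replicate number marks a pair. Same-numbered libraries did not deviate together (correlation of -0.363 over 11232 genes), so this block has no backing in the labels or the levels.

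The other Fanconi anemia genes showed smaller distances from co-culture. FANCI, the partner of FANCD2, was at 203.9 CPM in each co-culture library, 113.2 and 130.9 under EX527 and 131.6 in monoculture. The core complex subunits FANCA, FANCB, FANCE and FANCF had log2 fold changes of -0.68, -0.82, -0.91 and -0.75 with EX527, and FANCM, which anchors the complex to DNA, had -0.66. FANCL and UBE2T are the ligase and the conjugating enzyme that attach the ubiquitin; their log2 fold changes were -0.28 (SE 0.19) and -0.66 (SE 0.20). In co-culture against monoculture 10 of the 12 genes were higher, with a median of 0.66, and FANCB and FANCM were lower at -0.47 (SE 0.43) and -0.17 (SE 0.25). Summed over the 12 genes, the level was 782.1 and 792.0 CPM in co-culture, 409.0 and 478.5 under EX527 and 481.0 in monoculture.

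Because many Fanconi, recombination and resection genes lay low together with EX527, the stretches around the transcription starts of the 52 genes were searched for 3 motifs known from cell cycle genes. RefSeq promoters (GRCh38.p14, 250 bases before to 50 after the start) were matched for 47 of the 52 genes; RAD54B, FANCI, NBN, XRCC5 and PRKDC had no entry. The E2F letters TTTCCCGC or TTTGGCGC or TTTCGCGC or TTTGCCGC, on either strand, were found (with matches of different motifs free to share bases) in 10 of 47 promoters (21.3%), against 3.31% of all 35116 promoters and 4.8% of the 15741 promoters of the better covered genes. The CHR letters TTTGAA were found in 5 of 47 (10.6%), against 15.2% of all promoters and 10.5% of those of the better covered genes, and the letters CCAAT in 24 of 47 (51.1%), against 34.6% and 34.8%. Of the 10 promoters with E2F letters, 3 belong to mismatch repair genes (MSH3, MSH6 and PMS2) and 1 to XPC, and the others to FANCA, FANCC, FANCD2, EXO1, XRCC2 and XRCC6. They were found in 8 of the 32 promoters of genes with both EX527 libraries lower (25%) and in 2 of the other 15 (13.3%). The letters were therefore present in genes that lay far below co-culture with EX527 and in genes that did not. The promoters of the 4 genes with E2F letters and the lowest fold changes are printed 5′ to 3′ on the gene's strand, with those letters in capitals (in FANCD2, XRCC2 and XRCC6 on the opposite strand).
FANCD2 promoter, chr3:10026187-10026486, + strand: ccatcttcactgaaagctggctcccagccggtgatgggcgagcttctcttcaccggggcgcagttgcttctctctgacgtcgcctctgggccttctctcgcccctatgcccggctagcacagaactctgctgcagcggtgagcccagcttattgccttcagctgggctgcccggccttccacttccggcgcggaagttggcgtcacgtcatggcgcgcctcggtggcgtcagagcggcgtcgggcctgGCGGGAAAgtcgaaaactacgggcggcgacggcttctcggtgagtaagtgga
EXO1 promoter, chr1:241847954-241848253, + strand: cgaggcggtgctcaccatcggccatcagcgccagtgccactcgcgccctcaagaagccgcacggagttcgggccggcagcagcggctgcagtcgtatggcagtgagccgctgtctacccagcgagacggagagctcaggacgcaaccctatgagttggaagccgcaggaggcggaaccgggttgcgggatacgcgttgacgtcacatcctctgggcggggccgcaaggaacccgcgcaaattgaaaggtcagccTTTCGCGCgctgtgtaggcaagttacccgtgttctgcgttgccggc
XRCC2 promoter, chr7:152676092-152676391, - strand: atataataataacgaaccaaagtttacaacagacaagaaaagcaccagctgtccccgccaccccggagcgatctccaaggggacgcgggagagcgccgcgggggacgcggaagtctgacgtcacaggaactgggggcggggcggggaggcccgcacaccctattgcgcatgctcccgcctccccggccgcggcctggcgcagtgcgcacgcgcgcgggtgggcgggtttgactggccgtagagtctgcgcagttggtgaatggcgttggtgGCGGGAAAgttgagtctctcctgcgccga
XRCC6 promoter, chr22:41621045-41621344, + strand: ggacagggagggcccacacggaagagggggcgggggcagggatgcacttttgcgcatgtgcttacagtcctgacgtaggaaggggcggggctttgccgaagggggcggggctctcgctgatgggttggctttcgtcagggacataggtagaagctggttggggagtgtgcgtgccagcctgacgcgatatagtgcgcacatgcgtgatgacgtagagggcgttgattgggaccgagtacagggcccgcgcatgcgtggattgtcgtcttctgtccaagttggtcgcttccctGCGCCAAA
The first capital lies at -2 in FANCD2, 4 in EXO1, 21 in XRCC2 and 42 in XRCC6, counted in bases with the start site as 0, and the GC content of the 4 stretches is 62.0% to 65.3%.

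Several resection and recombination genes with helicase, nuclease and strand exchange roles also lay low with EX527, while others, such as RAD51C and RAD51D, stayed near co-culture. BLM (chr15:90717346-90816166), a helicase that unwinds recombination intermediates, was at 25.6 and 27.8 CPM in co-culture, 9.90 and 9.18 under EX527 and 14.8 in monoculture. Its log2 fold change with EX527 was -1.48 (SE 0.21, adjusted p = 0.0858 by edgeR), the smallest adjusted p of the 52, and its EX527 libraries agreed within 0.11 on the log2 scale. EXO1 (chr1:241847967-241895148), a nuclease that trims break ends and also serves mismatch repair, was at 25.9 and 26.5 CPM in co-culture, 9.29 and 11.7 under EX527 and 13.8 in monoculture, a log2 fold change of -1.33 (SE 0.23, adjusted p = 0.106 by edgeR). Both genes had EX527 libraries below monoculture and co-culture libraries above it. NBN, a subunit of the break sensor, was at 31.6 and 30.1 CPM in co-culture, 17.8 and 23.7 under EX527 and 23.8 in monoculture. RAD50, its ATPase partner, was at 59.0 and 59.8 CPM in co-culture and 74.6 and 54.8 under EX527, so the groups overlapped; 76.9% of its exon length in GENCODE 44 overlaps another gene, which makes its count uncertain.

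Among the 12 recombination genes, 10 were lower in both EX527 libraries with TMM scaling, where 39.8% of the better covered genes were. By library size alone 7 were lower, 4 overlapped and 1 was higher. The median log2 fold change with TMM scaling was -0.63, or -0.32 without EX527 replicate 1 and -0.96 without replicate 2. RAD51AP1 (chr12:4538798-4560047), which stimulates strand exchange, was at 99.1 and 93.0 CPM in co-culture, 40.1 and 43.3 under EX527 and 63.9 in monoculture, with log2 fold changes of -1.20 (SE 0.18, adjusted p = 0.0926 by edgeR) with EX527 and 0.59 (SE 0.23) in co-culture against monoculture. RAD54L, a motor protein of strand exchange, was at 32.9 and 35.5 CPM in co-culture, 12.9 and 17.6 under EX527 and 16.5 in monoculture. BRCA2, a mediator of strand exchange, was at 39.3 and 45.0 CPM in co-culture, 16.5 and 22.3 under EX527 and 32.9 in monoculture. For these 3 genes the EX527 and co-culture libraries did not overlap, and the log2 fold changes of RAD54L and BRCA2 were -1.17 (SE 0.24) and -1.12 (SE 0.24). XRCC2, which acts in strand exchange, had -0.99 (SE 0.21).

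BRCA1 (chr17:43044295-43170245), the ubiquitin ligase that promotes resection, lay above co-culture in both EX527 libraries. It was at 86.5 and 89.6 CPM in co-culture, 101.4 and 99.2 under EX527 and 86.2 in monoculture, a log2 fold change of 0.19 (SE 0.17, adjusted p = 0.527 by edgeR). BARD1, which pairs with BRCA1, and PALB2, which joins BRCA1 to BRCA2, had log2 fold changes of -0.62 (SE 0.30) and -0.64 (SE 0.30) with EX527, or -0.27 and -0.31 without EX527 replicate 1. BARD1 was highest in monoculture at 68.6 CPM, against 49.1 and 50.1 CPM in co-culture and 24.0 and 40.9 under EX527. RAD51C and RAD51D, which assist strand exchange, were near co-culture with EX527, at log2 fold changes of -0.18 and -0.20. RAD51B, whose gene spans 910.4 kb, was at 69.5 CPM in EX527 replicate 1 and 27.3 CPM in replicate 2, on either side of co-culture at 46.5 and 50.3 CPM, and at 26.5 CPM in the monoculture library. XRCC3 had -0.66 (SE 0.30), or -0.32 without EX527 replicate 1, with 76.7% of its exon length shared with other genes. RAD54B had -0.19 (SE 0.19); the table holds further rows of that name, which were not used, and 66.0% of its exon length overlaps other genes.

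Of the 5 end joining genes, 3 were lower in both EX527 libraries, among them both Ku subunits. With 39.8% of the better covered genes lower in this way, 3 of 5 does not set the pathway apart. The median log2 fold change was -0.65. XRCC6 (Ku70; chr22:41621163-41664048), which with XRCC5 (Ku80) grips broken ends, was at 472.8 and 443.6 CPM in co-culture, 273.3 and 264.4 under EX527 and 257.2 in monoculture. Its log2 fold changes were -0.77 (SE 0.17, adjusted p = 0.147 by edgeR) with EX527 and 0.83 (SE 0.22, adjusted p = 0.186 by edgeR) in co-culture against monoculture. XRCC5 was at 406.4 and 404.7 CPM in co-culture, 228.9 and 276.3 under EX527 and 333.2 in monoculture. PRKDC, the kinase that Ku recruits, was at 252.6 and 264.0 CPM in co-culture, 113.6 and 215.5 under EX527 and 264.0 in monoculture, so its distance rested mostly on EX527 replicate 1: the log2 fold change was -0.65 (SE 0.34) with all libraries and -0.26 without that library. LIG4, the ligase of the pathway, went the other way at 18.0 and 19.1 CPM in co-culture, 20.5 and 29.2 under EX527 and 31.1 in monoculture. XRCC4, the partner of LIG4, was at 16.3 and 19.9 CPM in co-culture and 19.2 and 9.96 under EX527, so the groups overlapped.

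In base excision and single-strand break repair, 4 of 6 genes were lower in both EX527 libraries, where 39.8% of the better covered genes were. By library size alone 4 were lower and 2 higher. The median log2 fold change with TMM scaling was -0.58 with EX527 against co-culture and 0.86 in co-culture against monoculture. UNG, the glycosylase that removes uracil, was at 44.4 and 45.9 CPM in co-culture, 16.8 and 25.9 under EX527 and 23.3 in monoculture, with a log2 fold change of -1.09 (SE 0.27, adjusted p = 0.165 by edgeR) with EX527. MUTYH and OGG1 are glycosylases that act on mispairs with, and on, oxidized guanine. MUTYH was at 21.2 and 24.4 CPM in co-culture, 15.4 and 14.4 under EX527 and 10.8 in monoculture. OGG1 was at 81.9 and 84.6 CPM in co-culture, 50 and 63.8 under EX527 and 41.1 in monoculture. Monoculture was thus lowest for both glycosylases, whose log2 fold changes in co-culture against monoculture were 1.08 (SE 0.28) and 1.02 (SE 0.27); 40.1% and 29.0% of their exon lengths overlap other genes. XRCC1, a scaffold of nick repair, was at 39.7 and 34.0 CPM in co-culture, 20 and 27.4 under EX527 and 21.7 in monoculture. LIG3, the ligase bound to XRCC1, and PARP2, which senses nicks, were highest in monoculture at 40.6 and 61.9 CPM, and their log2 fold changes with EX527 were -0.09 (SE 0.21) and 0.08 (SE 0.19).

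With TMM scaling, nucleotide excision repair genes stood near co-culture with EX527, apart from ERCC2, a helicase that opens DNA around a lesion. ERCC2 was at 65.3 and 57.5 CPM in co-culture, 23.5 and 41.5 under EX527 and 35.7 in monoculture, a log2 fold change of -0.92 (SE 0.32, adjusted p = 0.233 by edgeR). ERCC1, part of the nuclease that cuts beside the lesion, was at 52 and 50.5 CPM in co-culture, 47.5 and 53.1 under EX527 and 66.8 in monoculture. XPA, which verifies the lesion, was at 10.9 and 13.1 CPM in co-culture, 18.7 and 12.3 under EX527 and 11.6 in monoculture. In 4 of the 5 genes the EX527 and co-culture libraries overlapped with TMM scaling; by library size alone the same 4 were higher in both EX527 libraries, with log2 fold changes of 0.23 (XPC), 0.67 (XPA), 0.24 (ERCC1) and 0.26 (DDB2). The damage sensors XPC and DDB2 had log2 fold changes of -0.02 (SE 0.25) and -0.01 (SE 0.20) with EX527, and DDB2, at 56.6 and 52.6 CPM in co-culture, 49.9 and 58.6 under EX527 and 40.0 in monoculture, was lowest in monoculture.

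Mismatch repair transcripts were present in every Ishikawa library, and PMS1 had the largest fold changes among the 4 genes. PMS1 (ENSG00000064933.16, chr2:189784085-189877629, + strand), a MutL homolog, was at 45.2 and 42.5 CPM in co-culture, 77 and 69.6 under EX527 and 127.6 in monoculture. No group overlapped another for this gene. Its log2 fold changes were 0.74 (SE 0.19, adjusted p = 0.165 by edgeR) with EX527 against co-culture and -1.54 (SE 0.22, adjusted p = 0.122 by edgeR) in co-culture against monoculture, and DESeq2 called the second with an adjusted p of 0.000247. MSH6 (chr2:47695530-47810063), which recognizes base mismatches, was at 92.2 and 96.9 CPM in co-culture, 92.2 and 96.9 under EX527 and 124.9 in monoculture. MSH3, which recognizes larger loops, was at 31.5 and 30.5 CPM in co-culture, 27.3 and 22.2 under EX527 and 28.6 in monoculture. The EX527 and co-culture libraries overlapped for MSH6 (from 4102 and 4722 reads before scaling, against 5223 and 4551) and not for MSH3, at log2 fold changes of 0.00 (SE 0.18) and -0.33 (SE 0.21). By library size alone this turned round: MSH6 was higher in both EX527 libraries (0.27 on the log2 scale) and MSH3 overlapped (-0.04). PMS2, an endonuclease of the pathway, was at 40.1 and 39.5 CPM in co-culture, 20.4 and 36.4 under EX527 and 39.7 in monoculture. For PMS2 the low value was that of EX527 replicate 1 alone, and the log2 fold change was -0.49 (SE 0.32) with all libraries and -0.12 without that library. Near-identical copies make the PMS2 count uncertain: the copy PMS2CL was itself counted at 48.3 to 52.9 CPM in the 5 libraries.

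**Figure D4:**
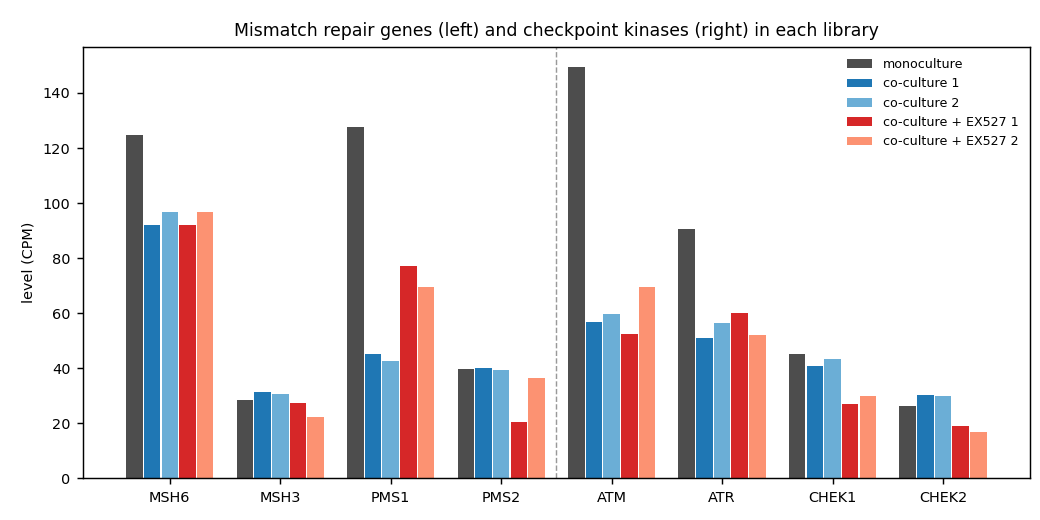
Level in CPM (bars from 0) of the 4 mismatch repair genes and the 4 checkpoint kinases in each of the 5 libraries. Monoculture is highest for PMS1 at 127.6 CPM, MSH6 at 124.9 CPM, ATM at 149.3 CPM and ATR at 90.5 CPM, while CHEK2 is lowest with EX527.

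Per kilobase of exon, so that genes can be compared, PMS1 led the mismatch repair genes in co-culture at 8.29 and 7.80 CPM per kb, followed by MSH3 at 5.91 and 5.73, MSH6 at 5.20 and 5.47 and PMS2 at 3.56 and 3.52 CPM per kb. In monoculture PMS1 was at 23.4, MSH6 at 7.05, MSH3 at 5.37 and PMS2 at 3.54 CPM per kb. With EX527 PMS1 was at 14.1 and 12.8 CPM per kb and PMS2 at 1.82 and 3.24 CPM per kb. Neighbours MSH3 and MSH6 changed places when the longest transcript replaced the union of all exons, which gave means of 12.8 CPM per kb for PMS1, 12.3 for MSH6, 6.92 for MSH3 and 5.84 for PMS2 in co-culture. RNA levels do not show whether the proteins are made or intact.

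Among the checkpoint kinases, the EX527 libraries overlapped co-culture for the apical kinases ATM and ATR with TMM scaling, and both were highest in monoculture. By library size alone both EX527 libraries lay above co-culture, at log2 fold changes of 0.32 for ATM and 0.35 for ATR. ATM (chr11:108223044-108369102), which responds to breaks, was at 56.9 and 59.7 CPM in co-culture, 52.4 and 69.6 under EX527 and 149.3 in monoculture. Its log2 fold change was -1.36 (SE 0.26, adjusted p = 0.133 by edgeR) in co-culture and -1.29 (SE 0.26, adjusted p = 0.614 by edgeR) with EX527, each against monoculture, and DESeq2 gave adjusted p-values of 0.00175 and 0.0315. ATR, which responds to stalled forks, was at 50.9 and 56.3 CPM in co-culture, 60.2 and 52.1 under EX527 and 90.5 in monoculture. The effector kinases were lower with EX527 instead. CHEK1, activated by ATR, was at 40.8 and 43.3 CPM in co-culture, 27.2 and 29.8 under EX527 and 45.2 in monoculture, a log2 fold change of -0.56 (SE 0.19, adjusted p = 0.229 by edgeR). CHEK2, activated by ATM, was at 30.2 and 29.8 CPM in co-culture, 19.0 and 16.7 under EX527 and 26.2 in monoculture, a log2 fold change of -0.75 (SE 0.20, adjusted p = 0.180 by edgeR). Neither effector had EX527 libraries overlapping co-culture, and their co-culture levels were close to monoculture, at log2 fold changes of -0.10 (SE 0.23) and 0.19 (SE 0.25).

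The EX527 libraries themselves disagreed for many of the 52 genes. Their log2 levels were more than 0.5 apart in 17 genes, 14 of them lower in replicate 1, while the co-culture libraries were nowhere more than 0.29 apart. The median gap was 0.34 between EX527 libraries and 0.07 between co-culture libraries. The farthest apart were RAD51B at 1.35 (replicate 1 minus replicate 2), FANCE at -1.02, FANCG and XRCC4 at -0.94 and 0.94, and FANCD2 at -0.93. In 10 genes the EX527 libraries were within 0.11 of each other, among them RAD51AP1, BLM and XRCC2, with log2 fold changes of -1.20, -1.48 and -0.99 with EX527, and BRCA1 and MSH6, with 0.19 and 0.00. Across the 52 genes the signed difference, replicate 1 minus replicate 2, had a Spearman correlation of 0.31 with gene length in the genome. Longer genes thus tended to lie higher in replicate 1 relative to replicate 2. The genes share the same libraries and are not independent.

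**Figure D5:**
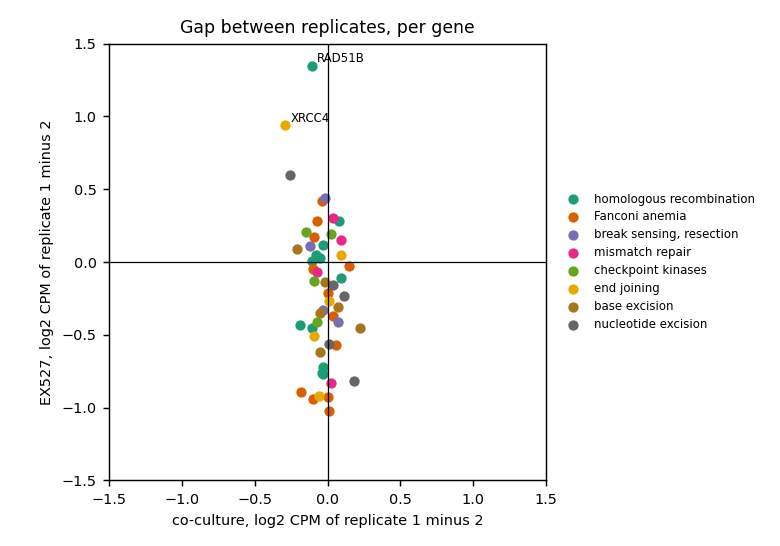
Difference in log2 CPM between replicate 1 and replicate 2 of each of the 52 genes, for the co-culture libraries (horizontal axis) and the EX527 libraries (vertical axis), coloured by pathway. Points spread from -1.02 to 1.35 vertically and within 0.29 of 0 horizontally.

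Other genes of the same pathways and of the cell cycle were also examined with EX527, and 0 of them passed an adjusted p of 0.05 in edgeR's test. Of 64 other DNA repair genes, 36 were lower and 6 higher in both EX527 libraries, with a median log2 fold change of -0.27, 15 being lower and 0 higher at an unadjusted p under 0.05. Among the better covered genes, 39.8% were lower and 23.1% higher in both EX527 libraries, and 16% were lower at that p. Those with the smallest p were GEN1, which cuts recombination intermediates, at -1.80 (SE 0.24), NTHL1, a glycosylase, at -1.63 (SE 0.22), and APEX1, the main nuclease at abasic sites, at -1.27 (SE 0.18). Of 16 other damage checkpoint genes, 10 were lower and 2 higher in both EX527 libraries, 6 being lower at that p, and CDC25C, the phosphatase that starts mitosis, had -1.85 (SE 0.23). In co-culture against monoculture the 20 proliferation markers were higher in both libraries, with a median of 0.86. TOP2A, which untangles replicated chromosomes, was at 509.7 and 544.9, 151.5 and 150.1, and 323.9 CPM in co-culture, with EX527 and in monoculture, and MKI67, a marker of cycling cells, at 164.3 and 162.8, 31.2 and 69.7, and 129.2 CPM in the same order. Epithelial markers also summed lower with EX527 (1591.8 and 2700.2 CPM, against 6860.8 and 6282.2 CPM in co-culture and 2710.3 CPM in monoculture). KRT8, KRT18 and PAX8 made up most of each sum. Of the 10 epithelial markers, 8 were lower and 0 higher in both EX527 libraries, and ESRP1 and SOX17 overlapped co-culture. The 12 adipocyte markers summed to 38.7 and 39.4 CPM in co-culture, 59.0 and 69.2 under EX527 and 91.1 in monoculture, and LPL made up most of each sum. With EX527 against co-culture 5 of the 12 were higher and 2 lower in both libraries, and their median log2 fold change was 1.29, or 0.33 without EX527 replicate 1. The 10 fibroblast and preadipocyte markers summed to 142.2 and 127.5 CPM in co-culture, 112.6 and 271.8 under EX527 and 209.0 in monoculture, mostly COL1A1 and COL1A2; 3 were higher and 2 lower in both EX527 libraries, and their median was 1.62, or -0.55 without EX527 replicate 1. Several scarce markers stood out in EX527 replicate 1, of which CIDEA (2.19 CPM, and 0.234 CPM in replicate 2) and FAP (2.17 and 0.0852 CPM) were chosen after their values were seen; in the other groups both were under 1 CPM. The part of these markers in the levels of the repair genes was not tested.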

How the data were processed

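Gene counts of 5 libraries were analysed. Per the labels' protocols, poly(A) RNA was enriched from 500 ng of total RNA and libraries were made with NEBNext Ultra II and sequenced on Illumina HiSeq. The submitters' processing notes name fastp, STAR 2, featureCounts and DESeq2 and the build GRCh38.p7; the annotation and the strand setting of the counting were not given in any source here, and reads of overlapping genes cannot be told apart. The authors deposited raw counts per gene, with no normalization. Here, genes were filtered with edgeR 4.0.16 (filterByExpr, minimum count 10), scaled by TMM and tested with the quasi-likelihood test, 1 coefficient per group over all 5 libraries, two-sided, with Benjamini-Hochberg adjustment over the 34658 genes tested and a threshold of 0.05. R was 4.3.3, DESeq2 1.42.0 and limma 3.58.1. Because the groups share 1 estimate of the spread, the EX527 libraries also set the p-values against monoculture. CPM are scaled by TMM; log2 CPM use a prior count of 2. Positions, exon lengths and overlaps come from GENCODE 44 (GRCh38), matched by gene ID, and promoters from RefSeq.

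The 52 genes and the lists were chosen with earlier results of these data known. Named were, per pathway, up to 3 genes with the largest fold change with EX527 and up to 2 against monoculture, all mismatch repair genes and checkpoint kinases, and of the other lists up to 3 genes per direction with the smallest p, of which the text gives the leading ones; MKI67, TOP2A, CDKN1A and SIRT1 were always given. Alternatives were other scalings, no filter, DESeq2, limma-voom, an older dispersion estimate, a replicate block and leaving out each replicate. Depths were 45653845 to 52269963 reads, at which 3 reads correspond to 0.053 to 0.0692 CPM.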

Additional observations from a re-analysis of the deposited data

How the results depend on the processing

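Under RLE size factors, library size alone, no filter, limma-voom, the older dispersion estimate and without either co-culture replicate, edgeR or limma called 0 of the 52 genes in each comparison. DESeq2 called 9 with EX527 against co-culture, 4 in co-culture against monoculture and 1 with EX527 against monoculture. Leaving out each replicate in turn gave 0 to 40, 0 to 39 and 0 to 44 calls in these comparisons, the highest numbers without an EX527 replicate, when the estimated common dispersion was 0.00434 or 0.0045 in place of 0.264. The replicate block gave 3 calls with EX527. Same-numbered libraries did not deviate together (correlation of -0.363 over 11232 genes), and pairing them crosswise, an alternative chosen after seeing the data, gave 10. The median with EX527 against co-culture was -0.35 with library size alone and -0.66 to -0.42 when a replicate was left out; that with EX527 against monoculture was 0.00 with library size alone and -0.48 to -0.14 when a replicate was left out; that in co-culture against monoculture was 0.28 with RLE size factors and DESeq2, 0.34 with library size alone and 0.32 to 0.37 when a replicate was left out. Levels per kb of the longest transcript were 6.92 for MSH3, 12.3 for MSH6, 12.8 for PMS1 and 5.84 for PMS2, against 5.82, 5.33, 8.04 and 3.54 per kb of exon; the shorter length is the difference.

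Signs turned in several genes, most of them near 0. RAD51B, at 0.00 with EX527 against co-culture, was at -0.82 without EX527 replicate 1 and 0.57 without replicate 2, and XRCC4, at -0.31, was at -0.86 and 0.13. With EX527 against co-culture, ERCC1 was at 0.02 with RLE size factors and DESeq2, 0.24 with library size alone, 0.03 with the replicate block and with crossed pairs, and 0.06 without EX527 replicate 1. MSH6 was at 0.05 with RLE and DESeq2, 0.27 with library size alone, 0.01 with no filter, 0.06 with the replicate block and with crossed pairs, and 0.01 to 0.04 when replicates were left out. ATR was at -0.03 to 0.21 and ATM at -0.11 to 0.26 when 1 replicate was left out. In co-culture against monoculture PMS2 was at -0.09 with RLE and DESeq2, -0.02 with library size alone, -0.06 with no filter, and -0.05 to -0.01 when replicates were left out. MSH3 with EX527 against monoculture was at 0.06 with library size alone. The cause of these turns was not tested. With 2 EX527 libraries that differ and 1 monoculture library, precision is limited by libraries and not by reads.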

Other observations

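Among 20 p53 target genes the direction with EX527 against co-culture was mixed, with a median log2 fold change of 0.00, 6 higher and 7 lower in both libraries, and 0 with an adjusted p under 0.05 by edgeR (4 higher and 5 lower at an unadjusted p under 0.05, where 10.0% of all genes were higher and 9.29% lower). GADD45A, a growth arrest gene induced by DNA damage, was at 13.0 and 12.4 CPM in co-culture, 126.5 and 116.1 under EX527 and 147.6 in monoculture, a log2 fold change of 3.26 (SE 0.20, adjusted p = 0.0751 by edgeR) with EX527. FAS, a death receptor, was at 23.2 and 25.3 CPM in co-culture, 7.45 and 9.18 under EX527 and 13.9 in monoculture. CDKN1A, the cyclin kinase inhibitor p21, was at 286.0 and 277.7 CPM in co-culture, 237.8 and 520.9 under EX527 and 269.7 in monoculture, so its EX527 libraries lay on either side of co-culture.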
